A study of Mus musculus with 2 samples.

Results

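Skeletal myogenesis was followed in single cells of mouse embryos through 10 genes: the 4 myogenic regulatory factors Myf5, Myf6, Myod1 and Myog, the fusion gene Mymk, and the cytoskeletal and contractile genes Des, Ttn, Tnnt1, Acta1 and Myh3. They were taken by symbol from the 21937 gene features of the deposited matrices, and all 10 were present. Their UMIs (unique molecular identifiers, each standing for 1 captured transcript) were counted by annotated cell type and by suspension, mainly in the 644 of 5678 cells that the authors annotated as Myoblast/Cardiomyocyte.

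The embryos were at E11.5 and all carried an EGFP transgene linked to a DNA barcode, inserted by the piggyBac transposon and driven by CAG, a promoter active in most tissues. Suspensions F0_8 and F0_9 were each made from 1 founder embryo, F1_1 from 1 embryo of the following generation, and F1_mix from cells of F1 embryos that were put together as an artificial mosaic. All embryos were transgenic, so there was no untreated control. The suspensions were tagged with separate oligos and captured in 1 droplet library with a 3′ chemistry, and no embryo gave a repeat preparation. The intervals below are 95% intervals (exact Poisson for levels, exact Clopper-Pearson for shares of cells) and cover counting error only.

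Skeletal muscle of the trunk and limbs arises from somite progenitors that carry the paired-box factors Pax3 and Pax7. In these cells the basic helix-loop-helix factors Myf5, Myf6 and Myod1 commit the cell to the muscle lineage, and Myog drives the step from dividing myoblast to differentiated myocyte. These factors bind E-boxes (CANNTG) in muscle promoters together with ubiquitous partners and with MEF2 factors. Differentiated myocytes then fuse through the membrane proteins encoded by Mymk and Mymx and build sarcomeres.

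The promoters of 5 members are shown: that of Myog, whose detection divides the cells below, and those of 4 structural genes followed across that division. Of the 10 members, 7 matched an entry of the RefSeq promoter table (GRCm38.p6, the build of the files), and Myod1, Myf6 and Mymk did not. Each sequence is the 250 bases before the transcript start, read in the direction of the gene, with matches to CANNTG, to CAGCTG, to the MEF2 site and to the CArG box in capitals.
Myog, chr1:134289754-134290003, plus strand: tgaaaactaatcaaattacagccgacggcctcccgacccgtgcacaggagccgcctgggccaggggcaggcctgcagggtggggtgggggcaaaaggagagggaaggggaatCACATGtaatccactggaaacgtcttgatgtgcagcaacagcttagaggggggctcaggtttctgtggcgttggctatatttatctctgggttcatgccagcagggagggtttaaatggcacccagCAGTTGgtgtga
Des, chr1:75360042-75360291, plus strand: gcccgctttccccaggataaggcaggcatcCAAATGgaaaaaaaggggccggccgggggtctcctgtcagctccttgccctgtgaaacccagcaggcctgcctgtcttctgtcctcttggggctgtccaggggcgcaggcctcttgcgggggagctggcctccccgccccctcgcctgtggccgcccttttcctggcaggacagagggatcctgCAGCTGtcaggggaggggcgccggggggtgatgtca
Tnnt1, chr7:4515976-4516225, minus strand: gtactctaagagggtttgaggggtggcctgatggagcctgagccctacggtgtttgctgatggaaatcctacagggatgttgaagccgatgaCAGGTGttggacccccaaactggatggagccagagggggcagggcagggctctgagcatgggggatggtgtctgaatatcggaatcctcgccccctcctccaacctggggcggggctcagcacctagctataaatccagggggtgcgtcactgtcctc
Ttn, chr2:76982548-76982797, minus strand: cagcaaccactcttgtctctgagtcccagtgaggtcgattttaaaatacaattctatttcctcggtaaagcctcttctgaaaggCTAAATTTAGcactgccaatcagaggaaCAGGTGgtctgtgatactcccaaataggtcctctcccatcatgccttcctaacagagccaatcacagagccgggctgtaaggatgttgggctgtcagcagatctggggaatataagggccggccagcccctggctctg
Acta1, chr8:123894776-123895025, minus strand: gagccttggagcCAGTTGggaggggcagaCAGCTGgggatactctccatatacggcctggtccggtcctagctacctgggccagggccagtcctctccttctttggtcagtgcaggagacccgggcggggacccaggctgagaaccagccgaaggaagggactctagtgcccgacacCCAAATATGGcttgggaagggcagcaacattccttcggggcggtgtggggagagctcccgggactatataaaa

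The Myog window held 2 E-boxes, CACATG at -138 and CAGTTG at -12 counted from the transcript start. Des held CAAATG at -220 and CAGCTG at -36, and Acta1 held CAGTTG at -238 and CAGCTG at -221, so that both genes carried the E-box with GC at its centre. Tnnt1 held a single E-box at -158 and Ttn a single one at -138, both spelled CAGGTG. Ttn also matched the MEF2 site at -166, and Acta1 matched the CArG box, the site of serum response factor, at -73. The MEF2 site was searched as YTAWWWWTAR, with Y for C or T, W for A or T and R for A or G. Stretches that differ from it at any base were not counted, such as ctatatttat in the Myog window, which differs at its last base. Of the members not shown, Myh3 held 1 E-box in the same window and Myf5 held none. All 4 motifs read the same on both strands, and every CAGCTG is also a CANNTG. Among 32851 promoters of the same table and length, 66.2% held CANNTG at least once and 31.8% at least 2 times. CAGCTG was found in 13.0% of them, the MEF2 site in 2.92% and the CArG box in 1.47%. A match describes the letters of the window and not a bound site.

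The annotated type was first set against its defining markers. All 10 members had UMIs in Myoblast/Cardiomyocyte, and at least 1 member was detected in 194 of its 644 cells (30.1%). The heart side of the name was checked with 18 cardiac markers. Nppa, Nppb, Myl2, Mybpc3 and Bmp10, which mark heart muscle, were at 0 over 12402415 UMIs, Myh6 had 2 UMIs and Myl7 had 17. Among the deep types described below, 3 of the 18 had their highest level here. These were Sln, a calcium pump regulator that skeletal muscle also expresses, with 139 UMIs (96.5% of its UMIs in all cells) in 0.776% of the cells, the early heart factor Nkx2-5, with 42 (84.0%) in 1.55%, and Smpx, with 38 (61.3%) in 1.40%. The summed level of the list was 0.659 to 1.44 UMIs per 10000 gene UMIs over the 4 suspensions, and 469 and 164 of its 1048 UMIs came from Hand2 and Tbx5, which limb mesenchyme also expresses. F0_8 was the highest, and there Sln led with 93 UMIs. By contrast, mesenchymal genes were widespread, with Prrx1 in 68.5% and Twist1 in 79.2% of the cells. The type is therefore called here by its deposited name and read as a mixed group in which a minority of cells carried muscle genes.

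The depth of the type was even between suspensions. F0_8 and F0_9 gave 99 and 115 of its cells and F1_1 and F1_mix gave 210 and 220, with median depths of 17115, 17030, 18946 and 19354 UMIs. The type made up 6.19% and 8.73% of the founder cells, and 16.03% and 15.2% of the F1 cells. No barcode was shared between suspensions. Of the 16 annotated types, 4 (Hepatocyte, Foregut, Midgut and Endodermal Progenitor) were shallow, with median depths of 721.5 to 1674 UMIs, and are kept apart below.

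Myog and Myod1 were the members most restricted to the type. Of all Myog UMIs, 97.1% (1772 of 1825) lay in Myoblast/Cardiomyocyte, and of all Myod1 UMIs 96.7% (668 of 691). The share was 91.7% for Myf6, with 22 of only 24 UMIs, and 87.8% for Myf5 (202 of 230). Mymk had 90.5% of its 179 UMIs there and Acta1 90.6% of its 180. The share of Acta1 rested on F0_8, and without that suspension it was 54.5% (12 of 22 UMIs). For Myog the next of the 12 deep types was CNS Neuron, with 0.0164 UMIs per 10000 against 1.43 in Myoblast/Cardiomyocyte. Droplets of 1 to 100 UMIs outside the suspensions carried Myog at 0.278 UMIs per 10000 (0.221 to 0.344), so the level in every other deep type lay under that of these near-empty droplets.

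**Figure D1:**
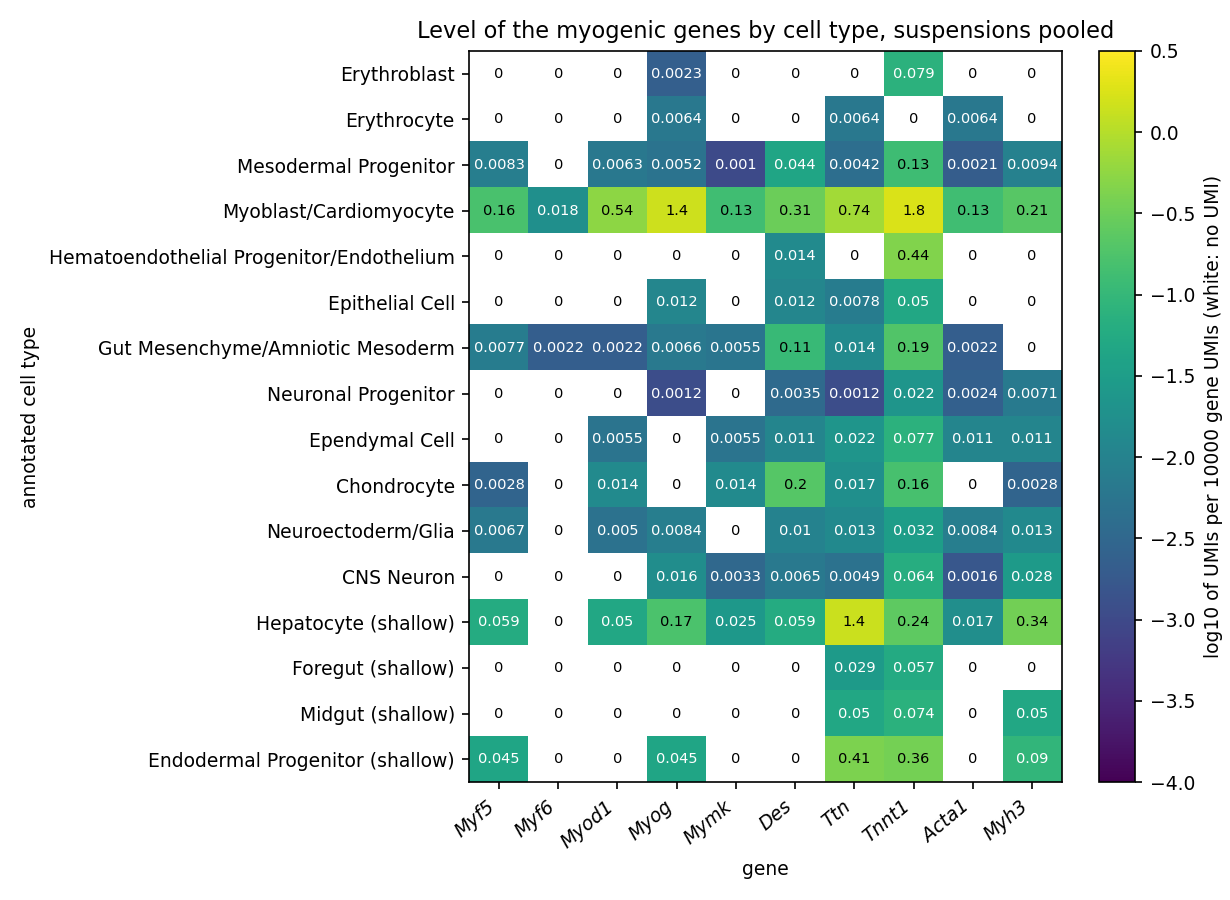
Level of each member (columns) in each annotated cell type (rows, deep types first, by falling median depth), as UMIs per 10000 gene UMIs with the 4 suspensions pooled; colour is the log10 of that level, the printed value is the level itself, and white marks no UMI. With the suspensions pooled, Myoblast/Cardiomyocyte had the highest level of all 10 members among the deep types, while Ttn and Myh3 were higher still in the shallow cells annotated as Hepatocyte.

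Some structural genes had lower shares of their UMIs in the type. Des, the intermediate filament protein of all muscle, had 61.4% of its 619 UMIs in the type. It was followed by Chondrocyte with 0.205 and Gut Mesenchyme/Amniotic Mesoderm with 0.108 UMIs per 10000, against 0.306 in Myoblast/Cardiomyocyte. In F1_1 the order of the first 2 was turned, with 0.384 in Chondrocyte (30 UMIs in 56 cells) and 0.226 in Myoblast/Cardiomyocyte. Tnnt1, the slow skeletal troponin T, had 78.8% of its 2804 UMIs in the type. Its next deep type was Hematoendothelial Progenitor/Endothelium, with 0.444 UMIs per 10000 against 1.78, and there it had UMIs in all 4 suspensions (24, 16, 12 and 11 in 18, 25, 15 and 18 cells). The near-empty droplets carried Tnnt1 at 0.448 (0.376 to 0.531) and Des at 0.114 (0.0788 to 0.159), and droplets of more than 100 and up to 300 UMIs carried them at 0.363 and 0.0930. Myog, at 0.278 in the near-empty droplets, had no UMI in Hematoendothelial Progenitor/Endothelium (up to 0.0260) and was at 0.00663 in Gut Mesenchyme/Amniotic Mesoderm. The part of free RNA in the levels of these types was not tested. Myh3, the embryonic myosin heavy chain, had 75.1% of its 354 UMIs in the type and no more than 0.0278 per 10000 in any other deep type when pooled. In 3 cases another deep type was higher in a single suspension for a member with few UMIs. In F1_mix Myh3 was at 0.0458 in CNS Neuron (8 UMIs) against 0.0343 in Myoblast/Cardiomyocyte (15 UMIs). In F0_9 Acta1 was at 0.0174 in Neuroectoderm/Glia (3 UMIs) against 0.00944 (2 UMIs), and Myf6 had 2 UMIs in Gut Mesenchyme/Amniotic Mesoderm and none in Myoblast/Cardiomyocyte.

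Ttn and Myh3 were also found in a few shallow cells. Ttn, which encodes the giant elastic protein of the sarcomere, reached 1.36 UMIs per 10000 in cells annotated as Hepatocyte, above the 0.738 of Myoblast/Cardiomyocyte. These were 163 UMIs, of which 60, 2, 29 and 72 lay in F0_8, F0_9, F1_1 and F1_mix. Myh3 followed it with 0.343 per 10000 against 0.214. Of 543 cells with this annotation, 8 held 3 or more members. The 5 with the most Ttn had 16 to 36 Ttn UMIs and 1 to 15 Myh3 UMIs among only 1803 to 3585 gene UMIs, and 15.9% to 28.8% of their UMIs were mitochondrial. The type as a whole had 17.8% mitochondrial UMIs, against 2.14% in Myoblast/Cardiomyocyte. Leaving out the shallow types raised the share of Ttn UMIs in Myoblast/Cardiomyocyte from 80.8% to 95.6%. The part of depth and of mitochondrial content in the annotation of these cells was not tested.

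Within Myoblast/Cardiomyocyte the muscle genes sat in few cells. A UMI of any of the 4 regulatory factors was found in 110 of 644 cells (17.1%, 14.3 to 20.2), and 534 cells had none. The share was 27.3% (27 of 99) for F0_8 and 16.5% (19 of 115) for F0_9, against 11.9% (25 of 210) for F1_1 and 17.7% (39 of 220) for F1_mix. F0_8 was highest and F1_1 lowest, and their intervals (18.8 to 37.1 and 7.85 to 17.1) did not overlap. Of all used cells these were 27 of 1599, 19 of 1318, 25 of 1310 and 39 of 1451 in the same order. By that measure F1_mix was highest and F0_9 lowest. The type was 6.19% and 8.73% of the founder cells and 16.03% and 15.2% of the F1 cells. A share or level within the type thus also depends on how many other cells it held. Each cell was also thinned to 5000 UMIs to remove differences in depth, which left out 2 cells of F1_1 and 2 of F1_mix. The shares were then 19.2%, 6.96%, 7.21% and 11.0% in the same order, with F0_8 again highest.

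UMIs were further concentrated within those cells. Of the Myog UMIs, 50% lay in 8 of the 63 cells that had any, and for Ttn in 5 of 53. Des was the most evenly spread of the structural genes, with 50% of its UMIs in 20 of 111 cells, and Tnnt1 was found in the most cells (146). Acta1, which encodes skeletal alpha-actin, was the extreme case: 116 of its 163 UMIs came from 1 cell of F0_8. Without that cell its level fell from 0.131 to 0.0380 UMIs per 10000. All 10 members were detected together in 1 cell, from F1_1, and 18 cells held 7 or more members, 8 of them from F0_8.

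**Figure D2:**
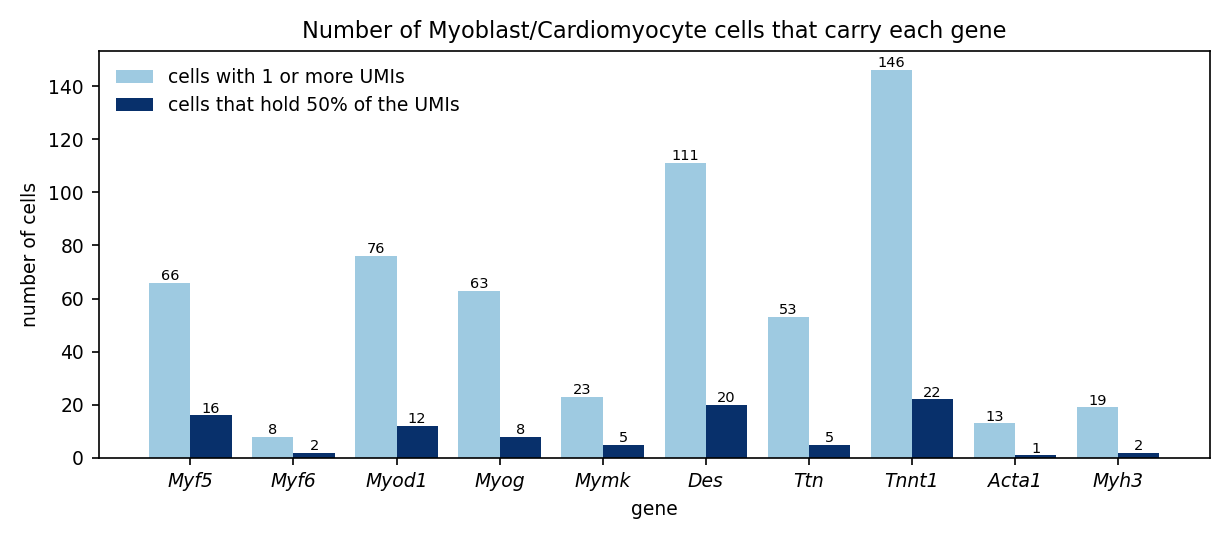
Number of Myoblast/Cardiomyocyte cells (y axis) with at least 1 UMI of each member (light bars) and the smallest number of cells that together hold 50% of its UMIs (dark bars), suspensions pooled. The dark bars run from 1 cell for Acta1 to 22 for Tnnt1, of 13 and 146 cells with a UMI.

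The 4 regulatory factors are described first, by suspension. Myf5 (ENSMUSG00000000435, chr10:107482908-107486927), the earliest of them in the somite, was at 0.206, 0.123, 0.175 and 0.153 UMIs per 10000 (here and below in the order F0_8, F0_9, F1_1, F1_mix). The 4 levels were close and their intervals overlapped. Myf6 (ENSMUSG00000035923, chr10:107492848-107494723), its neighbour on the chromosome, was at 0.0725, 0, 0.0170 and 0.00457 from 13, 0, 7 and 2 UMIs. The 3 counts that a count of 0 is taken to allow are a level of 0.0142 per 10000 in F0_9, and the exact interval reaches 0.0174, so the gene was near the limit of detection outside F0_8.

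Myod1 (ENSMUSG00000009471, chr7:46376474-46379092), which can impose the muscle program on other cells, was at 1.13, 0.722, 0.280 and 0.452 UMIs per 10000. Both founders lay above both F1 suspensions, and none of the 4 intervals overlapped. However, 49 of the 153 UMIs of F0_9 came from 1 cell. Without the top cell of each suspension the levels were 0.962, 0.496, 0.188 and 0.381, in the same order. Myog (ENSMUSG00000026459, chr1:134290004-134292548), the factor of terminal differentiation, was at 4.86, 1.5, 0.564 and 0.800 UMIs per 10000. The founders were again above the F1 suspensions without overlap, and F0_8 stood well above F0_9. In F0_9, 108 of the 318 Myog UMIs came from 1 cell, and in F1_1 109 of 232. Without the top cell of each suspension the levels were 3.80, 1.0, 0.301 and 0.618, again in the same order. Myog was found in 20.2%, 9.57%, 5.24% and 9.55% of the cells, so that F0_9 and F1_mix shared nearly the same share of Myog cells while their levels differed.

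The fusion gene followed the same order as Myog. Mymk (ENSMUSG00000009214, chr2:27061636-27072161), which encodes myomaker, a membrane protein needed for myoblast fusion, was at 0.519, 0.123, 0.0438 and 0.0571 UMIs per 10000. It was found in 9, 3, 5 and 6 cells. Both founders were above both F1 suspensions, though the intervals of F0_9 and F1_mix overlapped. In F0_9, 21 of the 26 UMIs came from 1 cell, and in F1_1 10 of 18. Without the top cell of each suspension the levels were 0.383, 0.0238, 0.0196 and 0.0390, so that F0_9 lay between the F1 suspensions.

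Among the structural genes, F0_8 was the highest suspension in each case. Des (ENSMUSG00000026208, chr1:75360292-75368579) was at 0.714 UMIs per 10000 in F0_8 and at 0.231, 0.226 and 0.251 in F0_9, F1_1 and F1_mix. Only F0_8 stood apart, and the other 3 suspensions overlapped. Tnnt1 (ENSMUSG00000064179, chr7:4504569-4515975) was at 4.41, 1.70, 0.909 and 1.56 UMIs per 10000. F0_9 and F1_mix had overlapping intervals, with F1_1 lowest. Ttn (ENSMUSG00000051747, chr2:76703980-76982557) was at 2.24, 0.731, 0.374 and 0.468 UMIs per 10000. Its founders lay above the F1 suspensions, but 99 of the 155 UMIs of F0_9 and 109 of the 154 of F1_1 were from 1 cell each. Without the top cell of each suspension F0_9 was at 0.267 and F1_mix at 0.347, the opposite order.

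The last 2 genes were set by single cells. Acta1 (ENSMUSG00000031972, chr8:123891758-123894775) was at 0.842 in F0_8 and at 0.00944, 0.0122 and 0.0114 in F0_9, F1_1 and F1_mix, from 2, 5 and 5 UMIs. F0_8 without its top cell was still at 0.197, above the other 3. Myh3 (ENSMUSG00000020908, chr11:67078273-67102291) was at 0.725, 0.245, 0.168 and 0.0343 UMIs per 10000. In F0_9, 51 of its 52 UMIs came from 1 cell and in F1_1 68 of 69, so the order of these 2 suspensions rests on 1 cell each. In F1_mix no cell had more than 5.

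**Figure D3:**
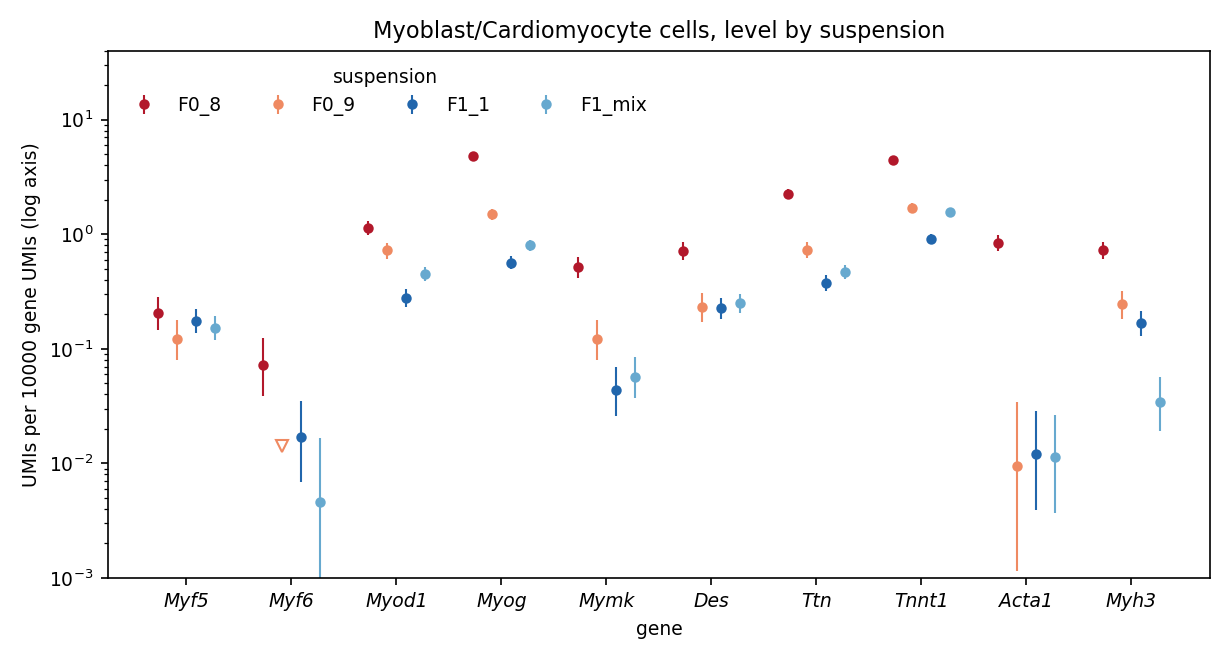
Level of each member in Myoblast/Cardiomyocyte cells of the 4 suspensions, as UMIs per 10000 gene UMIs on a log axis; bars are exact Poisson 95% intervals, which cover counting error only, and the open triangle is the level of 3 counts for Myf6 in F0_9, which had none. F0_8 is the highest point for all 10 members, and Myf5 is the only member whose 4 intervals all overlap.

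Founders were compared with F1 suspensions in a test over all genes, with the 2 suspensions of each generation as replicates (edgeR quasi-likelihood test on UMIs summed per suspension, Benjamini-Hochberg adjusted p under 0.05). Of the 10 members, 8 passed the filter on low counts and none of the 8 was called, while 14 of 11260 genes were called (0.124%), 9 of them higher in founders (0.0799%). At an unadjusted p under 0.05 there were 2 members, Myod1 and Mymk, and 1025 of all 11260 genes (9.1%). The log2 difference (founders minus F1) was 1.32 ± 0.327 (SE) for Myod1, with an adjusted p of 0.410, and 2.62 ± 0.872 for Mymk, with an adjusted p of 0.547. For Myog it was 2.21 ± 0.868, with an adjusted p of 0.647, and for Myf5 it was -0.02 ± 0.272, with an adjusted p of 0.988. The other 4 differences were 2.24 for Myh3, 1.79 for Ttn, 1.29 for Tnnt1 and 0.95 for Des. The 2 founders differed from each other, as for Myog at 4.86 and 1.5.

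The absence of calls depended on the tool and on the suspensions used. A Wald test with DESeq2 called Myod1 and Mymk of the 8 tested members, and 36 of the 11260 genes in all. Which members passed the threshold also changed with the suspension left out. In each of these fits 1 suspension stood alone and was taken to vary like the other pair, so their calls are not counted here. The differences of Myf5 and Des in these fits are given in the last paragraph. F0_9 also stood apart in blood genes: the 8 erythroid markers summed to 76.9 UMIs per 10000 of Myoblast/Cardiomyocyte cells there, against 0.879 to 0.948 in the other 3. The 8 smooth muscle markers, mostly Acta2, summed to 6.59 in F0_8 against 0.858 to 2.21 in the other 3. The part of these cells or transcripts in the comparison was not tested.

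Related gene lists were read from the same test, and edgeR called no gene of them. Of 29 tested genes of skeletal sarcomere and contraction (median log2 difference 1.32), 5 had an unadjusted p under 0.05, and DESeq2 called 0. Of the 29, 10 passed the low-count filter only with the founder sums, and Klhl41, Casq2 and Tmod1 of the 5 were among these. That count therefore leans to genes high in founders. Of 15 muscle progenitor regulators (0.25) there were 2, of 15 partners and inhibitors of the regulatory factors (0.10) 7, of 11 fusion and adhesion genes (0.21) 4 and of 12 cell cycle genes (-0.07) 2, and DESeq2 called 1 gene of each of these 4 lists. Of 6 tested genes of the neuromuscular junction (1.71) there were 4 (Chrnb1, Chrng, Musk and Rapsn), with none called by DESeq2, and 4 of the 6 passed the low-count filter only with the founder sums. These counts stand against the 9.1% of all genes at that unadjusted p. The median over all 11260 tested genes was 0.00. The 8 tested members had a median of 1.55. The genes that were called included Cck, Cntn5, Rprm, Egr1 and Anxa2, higher in founders, and Igdcc3, Barx1, Dlx5, Asb4 and Meis2, lower in founders, among which Barx1, Dlx5 and Meis2 are regulators of limb and facial mesenchyme.

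The regulatory factors overlapped in the 110 cells that carried them. Myf5 was the lone factor in 21 cells and Myod1 in 11, while Myog was alone in only 5 of its 63 cells. Myod1 and Myog together were the most frequent pair (25 cells), followed by Myf5, Myod1 and Myog in 20 cells and Myf5 with Myod1 in 14. Myf6 was found in 8 cells, 7 of which also had Myog. All 4 factors were seen in 4 cells, of F0_8, F1_1 and F1_mix. These counts depend on detection, since a factor with few transcripts can be missed in a cell that expresses it.

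The cells were then grouped by the factor detected, into 22 cells with only Myf5 or Myf6, 25 with Myod1 but not Myog, and 63 with Myog. Tnnt1 was already frequent in the first group (77.3% of cells) and was found in 96.0% and 92.1% of the other 2, against 8.80% of the 534 cells with no factor. Des was found in 59.1%, 44.0% and 79.4%, and Ttn in 27.3%, 40% and 54.0%, against 6.93% and 0.562% of the cells with no factor. Mymk was in 9.09%, 4.0% and 28.6% of cells, Myh3 in 4.55%, 0 and 25.4%, and Acta1 in 4.55%, 0 and 14.3%. Thus Tnnt1, Des and Ttn were common in cells with a factor other than Myog, whereas Mymk, Myh3 and Acta1 were mostly found with it.

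Of the progenitor genes Pax3, Pax7 and Met, Pax3 varied most between the groups. Pax3, a regulator of migrating muscle progenitors, was in 77.3% of cells with only Myf5 or Myf6, 52.0% of those with Myod1 and 49.2% of those with Myog. Pax7 was in 59.1%, 48.0% and 52.4%, and Met, the receptor that limb progenitors need to migrate, in 50%, 44.0% and 44.4%. Cdh15, the cadherin of muscle cells, was in 59.1%, 68.0% and 84.1%. Pax3 was thus most frequent in the first group and Cdh15 in the last. Median depths were 21595, 23518 and 22603 UMIs in the 3 groups and 17612.5 in the cells with no factor.

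**Figure D4:**
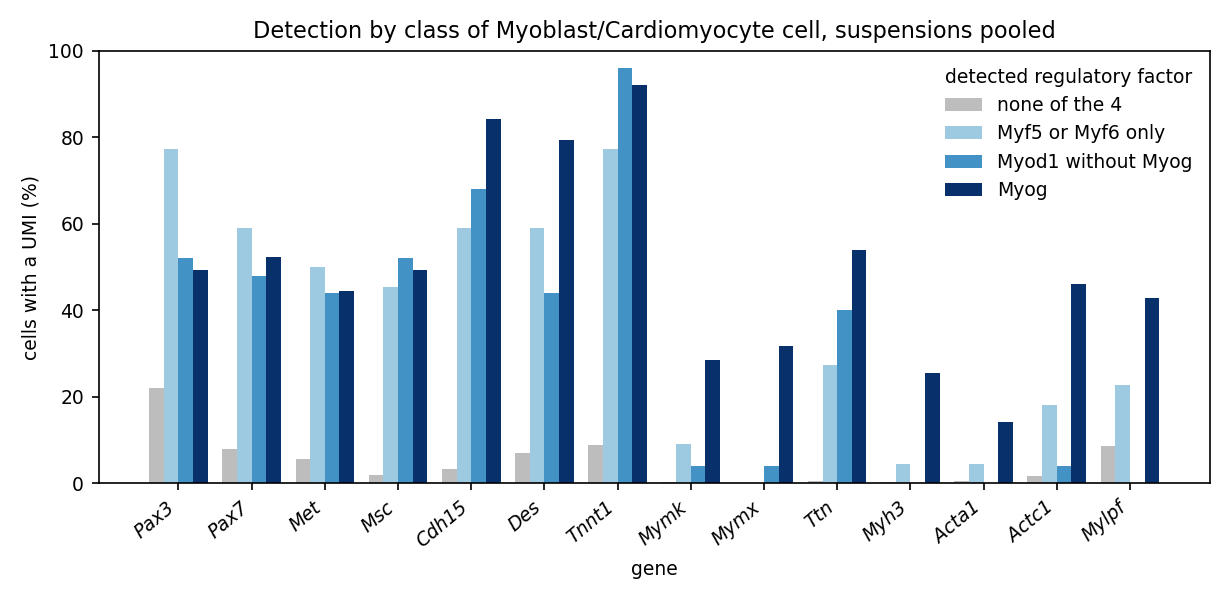
Share of Myoblast/Cardiomyocyte cells with at least 1 UMI of each gene (y axis, percent), in 4 groups by the regulatory factor detected (534, 22, 25 and 63 cells), suspensions pooled. Tnnt1 is found in 77.3% or more of every group with a factor, while Mymk and Mymx are found in 28.6% and 31.7% of Myog cells and in at most 9.09% of any other group.

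To test what accompanied Myog, cells with a Myog UMI were compared with the cells that had another regulatory factor but no Myog, summed within each suspension (20, 11, 11 and 21 cells against 7, 8, 14 and 18). The test was edgeR's quasi-likelihood test with the suspension as a block. The regulatory factors chose the cells and were left out. Of 5201 genes tested, 114 were called (2.19%), of which 95 were higher in Myog-positive cells (1.83%) and 19 lower. Of the other 6 members, 4 passed the low-count filter. Des and Tnnt1 reached the filter in the Myog-negative sums alone and rose. Mymk, which rose, and Ttn passed only with the Myog-positive sums, so that their passing depended on the group where they were high.

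Mymk was at 2.10, 0.985, 0.454 and 0.440 UMIs per 10000 in the Myog-positive cells of F0_8, F0_9, F1_1 and F1_mix, and at 0, 0, 0.114 and 0.0757 in the Myog-negative cells. It was higher in the Myog-positive cells of 4 of 4 suspensions, and the 2 sets did not overlap. The log2 difference was 3.56 ± 0.545 (SE), with an adjusted p of 0.00252 by edgeR. Since 2 of the 4 Myog-negative sums held no UMI, the size of this difference depends on the prior count of the fit.

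Tnnt1 was at 15.6, 9.93, 8.41 and 8.66 UMIs per 10000 in the Myog-positive and at 5.20, 4.99, 3.01 and 5.65 in the Myog-negative cells. It rose in 4 of 4 suspensions from a level that was already high, by 1.20 ± 0.162 on the log2 scale, with an adjusted p of 0.00222 by edgeR. Des was at 2.44, 1.33, 1.36 and 1.18 against 0.733, 0.661, 0.740 and 0.656. Its Myog-negative levels were nearly equal in the 4 suspensions, and it rose by 1.15 ± 0.216, with an adjusted p of 0.00576 by edgeR.

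Ttn was at 8.75, 5.38, 5.20 and 3.26 UMIs per 10000 in the Myog-positive and at 1.20, 0.781, 0.114 and 1.01 in the Myog-negative cells. The sets did not overlap, and the log2 difference was 2.89 ± 0.480, but the adjusted p of 0.0673 by edgeR missed the threshold. DESeq2 called Ttn and Tnnt1 and not Mymk or Des. Without F0_9, F1_1 or F1_mix in turn, edgeR called Ttn, and without F0_8 it did not.

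Acta1 and Myh3 did not pass the low-count filter. Acta1 was at 3.43, 0.0758, 0.174 and 0.0400 UMIs per 10000 in Myog-positive cells, and in the Myog-negative cells it had a single UMI, in F1_mix. Myh3 was at 2.97, 1.93, 2.41 and 0.260 in Myog-positive cells and likewise had 1 UMI in Myog-negative cells, in F1_mix. F0_8 was highest in both genes, as it was for each of the other 4. With no filter on low counts all 6 members were called, among 319 of 14185 genes.

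**Figure D5:**
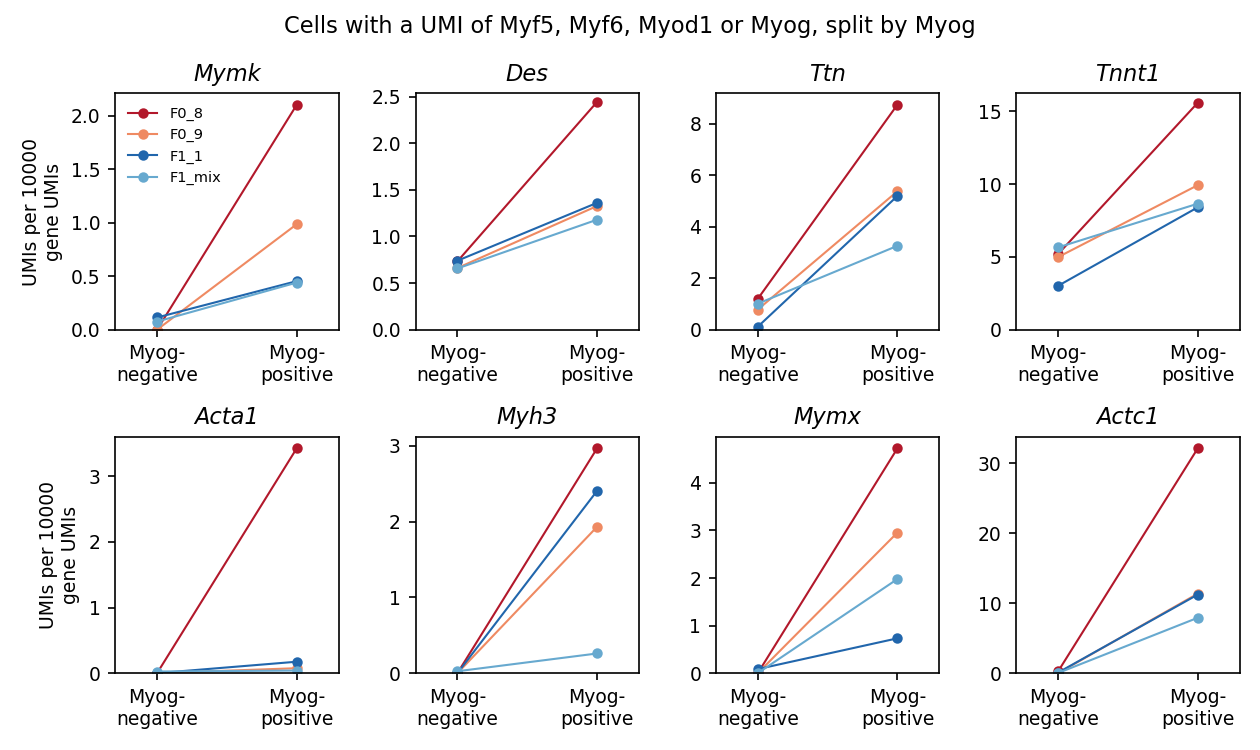
Level of 6 members and of Mymx and Actc1, as UMIs per 10000 gene UMIs (y axes start at 0), in Myog-negative and Myog-positive cells among those with any regulatory factor; each line is 1 suspension. In F0_8, F0_9, F1_1 and F1_mix alike the level is higher in the Myog-positive cells, and F0_8 has the highest Myog-positive value in all 8 panels.

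Detection at equal depth showed the same order. After each cell was thinned to 5000 UMIs and split again by Myog, 41 cells were Myog-positive and 25 Myog-negative. Tnnt1 was found in 95.1% (83.5 to 99.4) and 60.0% (38.7 to 78.9) of them, and unthinned in 92.1% and 87.2%. Mymk was found in 34.1% (20.1 to 50.6) and 4.0% (0.101 to 20.4), intervals that narrowly overlapped, and unthinned in 28.6% and 6.38%. Des was found in 53.7% and 28.0% after thinning, and unthinned in 79.4% and 51.1%, with overlapping intervals after thinning.

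Other muscle genes changed with the members. Of the 36 genes of skeletal sarcomere and contraction, 15 were tested and 12 rose (median log2 difference 1.87, against 0.00 over all 5201 genes). Of the 15, 8 passed the filter only with the Myog-positive sums, and 7 of these rose, so the count and the median lean to genes high in these cells. The other 7 reached it in the Myog-negative sums alone, and 5 of them rose (Nes, Tpm2, Ckb, Mybpc1 and Vim, median of the 7 0.93), against 1.1% of the 3712 genes that did so. Actc1, the cardiac alpha-actin that embryonic skeletal muscle also uses, rose by 7.44 ± 0.213, with an adjusted p of 2.65e-13 by edgeR. It was at 32.1, 11.4, 11.2 and 7.92 UMIs per 10000 in the Myog-positive cells and at no more than 0.267 in any Myog-negative sum. The light chains Mylpf and Myl1 rose by 6.41 and 6.31, the troponins Tnni1, Tnnt2 and Tnnc1 by 6.0, 5.85 and 5.57, and Neb, the thin filament ruler, by 2.64. Actc1, these light chains and these troponins had Myog-negative sums with no UMI, so the sizes of their differences depend on the prior count. Tpm1, Tpm3 and Ryr1 were not called (0.39, -0.01 and 1.0). The list also holds Nes, Vim and Ckb, which rose and are not particular to muscle.

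Among 9 tested fusion and adhesion genes, 4 rose and 1 fell, and of the 7 that reached the filter in the Myog-negative sums alone 3 rose, against 1.1% of all genes that did so. Mymx, the partner of Mymk in fusion, rose by 6.09 ± 0.547, with an adjusted p of 9.56e-05 by edgeR, and Cdh15, Jam3 and Ncam1 rose by 1.44, 1.0 and 0.75. Mymx passed the filter only with the Myog-positive sums and had no UMI in 3 of the 4 Myog-negative sums, so the size of its difference depends on the prior count, as does that of Chrm3 below. Cdh2, the N-cadherin, fell by 1.03. Among 14 tested partners and inhibitors, 3 rose: Mef2c by 3.96, Cdkn1a, an inhibitor of cell cycle kinases, by 3.46, and Mef2a by 0.96. Mef2c and Cdkn1a passed the filter only with the Myog-positive sums, and of the 9 genes that reached it in the Myog-negative sums alone 1 rose, Mef2a. Id1, Id2, Id3 and Twist1, known inhibitors of the regulatory factors, were not called (0.18, 0.40, 0.33 and -0.55).

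Of 12 tested progenitor regulators, 1 was lower: Pax3 fell by 1.12 ± 0.186, with an adjusted p of 0.00197 by edgeR. Pax7 and Met were not called (-0.24 and -0.06). None of 12 cell cycle genes was called by edgeR (median -0.07, 2 at an unadjusted p under 0.05, 0 by DESeq2), nor any of 4 tested mesenchyme genes (-0.42, 2 at an unadjusted p under 0.05, 1 by DESeq2), while 11.5% of all genes had an unadjusted p under 0.05. Acta2, the smooth muscle alpha-actin and the 1 tested smooth muscle marker, rose by 2.76, and 70.3% of its UMIs in all cells lay in Myoblast/Cardiomyocyte. Chrm3, a muscarinic receptor, rose by 6.52, and the 5 genes that fell most were Tmem132c, Col23a1, Kcnab1, Dlc1 and Smarca2, by 1.98, 1.93, 1.91, 1.66 and 1.49.

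Whether the step with Myog differed between founders and F1 was tested as an interaction, a test added after the data were seen. Of 5201 genes 5 were called (0.0961%), and none of the 4 members, of which Mymk alone had an unadjusted p under 0.05, as did 314 of all genes tested. The difference between the generations (founders minus F1) was 6.41 ± 1.77 for Mymk, with an adjusted p of 0.331 by edgeR, 0.62 ± 0.441 for Des, 0.36 ± 0.303 for Tnnt1 and 0.07 ± 1.33 for Ttn, with adjusted p of 0.953 to 0.999. Both founders had no Mymk UMI in Myog-negative cells, so its estimate again depends on the prior count.

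Across the 12 deep types in the 4 suspensions (48 sums), the non-member gene most like each member was found among 13120 genes. Likeness was Pearson's r of log2(UMIs per 10000 + 0.01). Members were left out of this search, and some were closer to each other, as Ttn to Myod1 (0.91) and Acta1 to Myf6 (0.80). Each r is a description over sums that share a droplet library and differ in depth. Mymx was closest to Myod1, Myog and Mymk (0.94, 0.93 and 0.91), with Pitx3, a homeobox gene, among the 3 closest non-members to each (0.93, 0.90 and 0.86). Myf5 was closest to Fitm1 (0.92), Ttn to Pitx3 (0.89) and Myh3 to Tnnc1 (0.86), the slow and cardiac troponin C. Myf6 and Acta1 were both close to the fast troponin C gene Tnnc2 (0.92 and 0.77) and to Mybph (0.90 and 0.79). Myf6 had only 24 UMIs in all cells, and 116 of the 163 Acta1 UMIs in Myoblast/Cardiomyocyte came from 1 cell. The values of r for both therefore rest on few UMIs or cells. Des and Tnnt1 stood apart, with Saa1 (0.85) and Gsto1 (0.80) closest, of which 28.3% and 30.1% of the UMIs lay in Myoblast/Cardiomyocyte.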

How the data were processed

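Cells were captured with the 10x 3′ v3.1 chemistry, and the deposited matrices hold UMI counts of the authors' Cell Ranger run (release 7.2.0 in the headers, an earlier one in the methods text) against GRCm38 with EGFP added. Counts were neither normalized nor corrected for ambient RNA. The authors' table gave each cell's suspension and cell type, and their methods state doublet removal, so no further doublet caller was run. Their stated limit of 5% mitochondrial transcripts was reached or passed by 1410 of the 5678 cells in the deposited counts, and by 2 of the 644 Myoblast/Cardiomyocyte cells. The cell types come from the authors' clustering on variable genes, and whether the members were among these was not stated. The totals per suspension were 16052917 to 19160116 gene UMIs.

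A level is the summed UMI count of a gene per 10000 UMIs of all genes. Sums per suspension were tested in R 4.3.3 with edgeR 4.0.16 (filterByExpr, TMM, robust quasi-likelihood fit), with DESeq2 1.42.0 as an alternative. For founders against F1, p-values measure the spread between suspensions, which come from different embryos, with F1_mix a mixture of F1 embryos. For the split by Myog and the interaction, which block on the suspension, they measure the spread of the differences within suspensions. A type was called shallow when the median depth of all cells exceeded its own more than 3 times. The SE is the absolute log2 difference divided by the square root of the F statistic. Tested on simulated data, 89% of well-counted genes changed by 1 on the log2 scale were recovered for founders against F1 and 86% for the split by Myog, and 2.07% and 5.10% of calls were false. The simulated counts followed the dispersion trend of the fit. The recovery therefore does not describe genes that vary more than the trend or sit in few cells. Between founders and F1 the SEs of the tested members were 0.272 to 1.14. Positions and promoters came from RefSeq (GRCm38.p6). Python 3.11.15, numpy 2.4.6, pandas 2.3.3, scipy 1.17.1 and matplotlib 3.10.9 were used, with seed 1 for thinning. The members and lists were chosen with earlier results of these data known. Levels without the top cell, shares without a suspension and the interaction test were added after the data were seen. Non-members were named by rule: up to 4 per list by UMIs in the type, the largest changes past the threshold, and the 3 genes most like each member among those with 100 or more UMIs. Met, Pax7, Id1, Id2, Mef2a, Tnni1, Tnnt2, Tnnc1, Neb, Chrnb1, Chrng, Musk, Rapsn, Ckb, Mybpc1, Tpm2, Ryr1, Klhl41, Casq2, Tmod1, the cardiac markers and the genes of the interaction test were chosen after their values were seen.

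The number of columns of other samples was 0. The library of multiplexing oligos was used only through the authors' assignment.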

Additional observations from a re-analysis of the deposited data

Results flagged for a closer look

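The change between Myog-negative and Myog-positive cells differed between founders and F1 suspensions for 5 of 5201 genes, by the test of the difference itself (edgeR interaction term, added after the data were seen), and no member was among them. In founders minus F1, the log2 difference was -2.90 ± 0.439 (SE) for Cdh13, with an adjusted p of 0.00884, -4.22 ± 0.765 for Lgr5, with 0.0340, 4.33 ± 0.739 for Inpp4b, with 0.0214, 1.93 ± 0.373 for Ube2c, with 0.0427, and 3.56 ± 0.612 for Robo2, with 0.0427. Cdh13, a cadherin of several embryonic tissues, was at 0.845 and 0.985 UMIs per 10000 in the Myog-positive cells of F0_8 and F0_9 and at 1.47 and 3.61 in their Myog-negative cells. In F1_1 and F1_mix it was at 0.907 and 1.94 in the Myog-positive cells and at 0.398 and 0.555 in the Myog-negative cells, the opposite order. Inpp4b was at 0.133 and 0 in the Myog-negative cells of F0_8 and F0_9, so the size of its difference depends on the prior count. Lgr5 was at 0.0284 in the Myog-negative cells of F1_1, so its size rests on few UMIs. At an unadjusted p under 0.05 there were 314 genes.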

How the results depend on the processing

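The founder comparison called 14 genes and no member. It called 36 genes and 2 members with the DESeq2 Wald test, 60 genes without a low-count filter, and 2 genes in cells with a regulatory factor. Leaving out each suspension in turn gave 0 to 572 genes and 0 to 7 members, so the count rests on which suspensions are included. The split by Myog called 114 genes and 3 members. It called 67 genes with the DESeq2 Wald test, 319 genes and 6 members without the filter, 1414 genes and 5 members against all other cells of the type, 207 genes and 5 members at 2 or more Myog UMIs, and 27 genes after thinning, when only 736 could be tested. The number of genes tested differed between these settings, so their member counts have no common share of all genes beside them. Leaving out each suspension gave 82 to 127 genes and 3 to 5 members. Without the suspension block 80 genes and 1 member, Des, were called. Between founders and F1, no paired analysis was possible because the labels give the suspensions no shared replicate numbers. The sign turned for Myf5 between generations (0.20 with 1 or fewer cardiac UMIs, -0.43 to 0.33 with a suspension left out), for Des (-0.059 to 1.57, negative without F0_8), and for Kcnab1 in the split (0.21 against all other cells of the type). The cause was not tested. Shares of cells fell with depth, as for Des from 17.2% to 8.44% at 5000 UMIs and 4.97% at 2000. DESeq2 size factors changed no member's call. The precision for Acta1, Myf6 and Myh3 is limited by UMIs from a few cells.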
